A study of Homo sapiens with 30 samples.

Results

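The endoplasmic reticulum (ER) chaperones and the unfolded protein response were followed through 34 listed genes in 10 lines of KMS11, a human multiple myeloma cell line in which a chromosomal translocation drives high expression of the histone methyltransferase NSD2 (also called MMSET). Each gene was read on the brightest probe set that carries its symbol alone, the one with the highest mean over the 30 arrays. In this way 33 of the 34 genes were read, out of 19775 genes with such a probe set on the array. SYVN1, the ubiquitin ligase of ER-associated degradation, lies only on a probe set that it shares with another symbol and has no value here. All 33 genes passed the filter on dim values that left 13137 genes for testing, and the lowest of their values on any array was 5.88 (ERO1B) against a floor of 5.013, the median of all values.

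RNA of 3 separate cultures of each line was hybridised to Affymetrix HG-U133 Plus 2.0 arrays, and the comparisons ask which forms of NSD2 restore expression that its loss removed. PAR stands for unmodified KMS11 and TKO for the NSD2 knockout, and the other 8 are KMS11 cells with an NSD2 transgene, by the study's design added to the knockout. These are the wild-type protein (WT), a catalytic dead mutant (CDM), a mutant labelled H762Y, the fragments 526-1240 and 526-1365, the short isoform MMSET I without a SET domain (MMSET1), and this isoform beside the wild type (WT+MMSET1) or beside the dead mutant (CDM+MMSET1). Each transgene is represented by a single line, and none of the groups is a knockout line with an empty vector, so an effect of a transgene and one of its line cannot be told apart. Values are log2 RMA values, on which a difference of 1 is a doubling, and SE stands for limma's moderated standard error of a difference between lines, with n = 3 arrays in each.

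Secretory and membrane proteins fold in the ER, where chaperones of the heat shock families, lectin chaperones that read sugar chains, and enzymes that make disulphide bonds act on them, and where misfolded chains are sent back to the cytosol for degradation. When unfolded chains accumulate, 3 sensors in the ER membrane, IRE1 (ERN1), PERK (EIF2AK3) and ATF6, start the unfolded protein response: IRE1 splices the XBP1 transcript, ATF6 is cleaved into a transcription factor, and PERK slows translation and favours that of ATF4. Plasma cells and the myelomas that arise from them secrete immunoglobulin and are known for a large ER and a need for XBP1.

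The ER stress response elements through which ATF6 and XBP1 are known to act are shown here because they mark the classical targets among these genes, whose values are described by role further on. The 250 bases before the RefSeq start site (GRCh38.p14) were searched on both strands for ERSE, spelled CCAAT, any 9 bases and CCACG, and for ERSE-II, spelled ATTGG, any 1 base and CCACG. No gene held both, and each contains the letters CCACG. Of the 34 listed genes 30 had a promoter in the table, some of them several. A listed gene counted if any of its promoters held the element. The shares of all are per promoter, so the units differ. ERSE was present in 8 of these (26.7%) and in 26 of all 35114 promoters (0.074%). ERSE-II was present in 3 of the 30 (10%) and in 18 of all promoters (0.0513%). The windows below run 5′ to 3′ along the gene's own strand, with the matching letters in capitals. HSPA5 and XBP1 are shown as the textbook targets, CALR, CRELD2 and SDF2L1 as genes that were lower in WT than in TKO, and CANX and HERPUD1 as genes that were higher.
HSPA5: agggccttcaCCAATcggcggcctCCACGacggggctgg
XBP1: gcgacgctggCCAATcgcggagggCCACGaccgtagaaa
CANX: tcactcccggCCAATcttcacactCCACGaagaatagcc
CALR: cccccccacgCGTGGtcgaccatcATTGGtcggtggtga
CRELD2: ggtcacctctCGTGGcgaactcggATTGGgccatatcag
HERPUD1: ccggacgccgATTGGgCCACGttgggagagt
SDF2L1: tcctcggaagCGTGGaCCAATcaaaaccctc

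The HSPA5 window is chr9:125241381-125241419 on the minus strand and the XBP1 window chr22:28800593-28800631 on the minus strand. The others lie on the plus strand, CANX at chr5:179698768-179698806, CALR at chr19:12938374-12938412, CRELD2 at chr22:49918544-49918582, HERPUD1 at chr16:56932015-56932045 and SDF2L1 at chr22:21642104-21642134. In CALR, CRELD2 and SDF2L1 the element reads on the opposite strand, so the capitals show its reverse complement. Counted from the start site, the first base of the element is at -66 in HSPA5, -52 in XBP1 and -117 in HERPUD1. HSP90B1 holds 2 ERSE copies and HYOU1 2 ERSE-II copies, and PDIA6 and ERO1B hold ERSE. The letters CCACG alone were in promoters of 21 of the 30 genes (70%) and in 33.5% of all promoters. The core TGACGTGG, known from XBP1 binding, was found in HYOU1, overlapping an ERSE-II copy there (0.612% of all promoters hold it), and TGATGCAA, a core of the ATF4 composite element, in HERPUD1 (0.772%). A match is a description of the letters and not evidence of binding.

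Most plasma cell genes were high on the arrays. TNFRSF17, PRDM1, IRF4, POU2AF1, JCHAIN and MZB1 had line means between 10.53 and 13.38, whereas SDC1 (5.51 to 7.12), CD38 (4.92 to 6.43) and SLAMF7 (3.53 to 3.94) were dim. List means of T cell genes (4.38 to 4.59), monocyte genes (at most 3.79) and fibroblast genes (4.54 to 4.73) lay below the floor in every line. Within these lists COL1A1 (6.71 to 6.92) and CD3D (5.27 to 5.52) were above the floor in every line. The 5 epithelial genes averaged 5.09 in TKO to 5.82 in PAR, led by EPCAM (6.71 to 9.56), and the 3 erythroid genes 5.53 to 6.07, led by HBB (6.83 to 8.09). Their part in the results was not tested. NSD2 itself read 10.61 ± 0.042 (SD, n = 3) on the PAR arrays and 10.18 ± 0.111 on those of TKO and differed by 0.43 (SE 0.0956, limma adjusted p = 0.00157), so its probe set still gave signal in the line labelled knockout. Of the transgene lines only H762Y passed against TKO for NSD2 (0.46, limma adjusted p = 0.00185). WT differed from TKO by 0.22 (0.0744) and 526-1240 by -0.21 (0.0825). Which NSD2 transcripts the probe set reads was not tested. H762Y replicate 1 stood furthest apart: it correlated across genes with replicates 2 and 3 at 0.958 and 0.961, against 0.998 between those. The H762Y comparisons of the listed genes are given with and without it. Its values also enter the spread that the fit of all lines shares. The lowest correlation within a line was 0.970 in PAR, 0.979 in 526-1240, 0.982 in 526-1365 and 0.983 in WT, and at least 0.991 in the other 5.

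Of the 33 genes, 27 (81.8%) differed among the 10 lines by the limma F test at an adjusted p under 0.05, which 60% of all genes tested did. The 6 that did not pass were HYOU1, PDIA3, ERO1B, EDEM3, DERL3 and SEC61A1, with adjusted p from 0.0525 (HYOU1) to 0.313 (EDEM3). The range between the highest and lowest line mean had a median of 0.84 over the 33 genes and 0.54 over all genes tested. It was 3.02 for ERN1, 2.08 for DNAJB9, 1.41 for SDF2L1 and DERL3 and 1.21 for CALR, and smallest for CANX at 0.29 and XBP1 at 0.32.

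**Figure D1:**
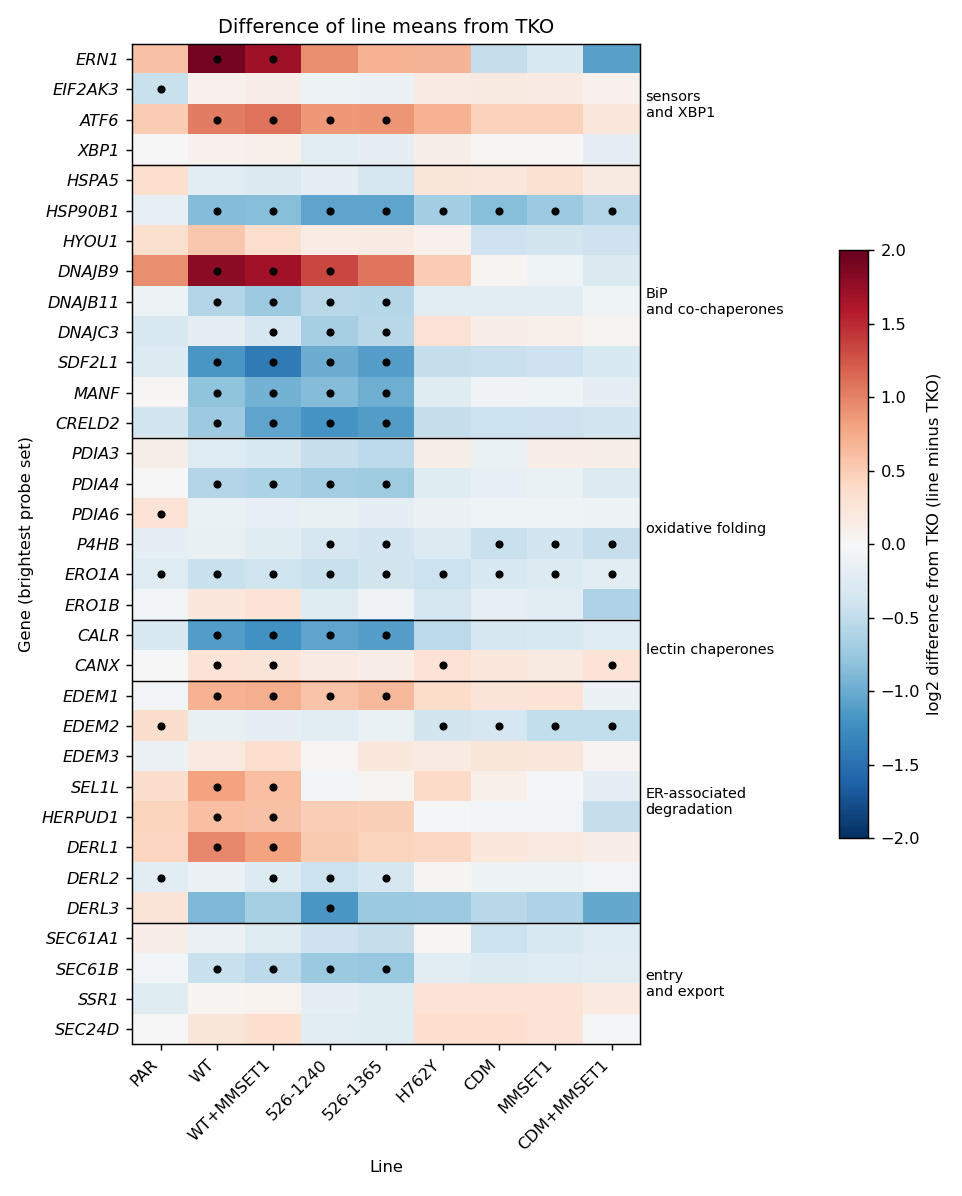
Difference of each line mean from the TKO mean (log2, red higher, blue lower) for the 33 genes in rows grouped by role and 9 lines in columns, with a dot where the limma adjusted p was under 0.05. WT and WT+MMSET1 show ERN1, ATF6, DNAJB9, EDEM1, SEL1L, HERPUD1 and DERL1 higher and most luminal chaperones lower, while CDM, MMSET1 and CDM+MMSET1 have at most 5 dots each.

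WT was compared with TKO to see which ER genes differed when full-length NSD2 was present. In WT against TKO, 8 of 33 rose (24.2%, where 21.5% of all genes tested rose) and 9 fell (27.3%, where 19.3% of all fell), shares near those of all genes. The 8 that rose were the sensors ERN1 and ATF6, the BiP co-chaperone DNAJB9, the degradation genes EDEM1, SEL1L, HERPUD1 and DERL1, and the membrane lectin CANX. The 9 that fell were luminal folding proteins, HSP90B1, DNAJB11, SDF2L1, MANF, CRELD2, CALR, PDIA4 and ERO1A, and the translocon subunit SEC61B. The median difference of the 33 was -0.12, beside a value that rounds to 0 over all genes. In WT+MMSET1 against TKO 8 rose and 11 fell (21.5% and 19.1% of all genes), from ERN1 (1.70), DNAJB9 (1.68) and ATF6 (1.08) at the top to CRELD2 (-1.05), CALR (-1.21) and SDF2L1 (-1.41) at the bottom. All comparisons with TKO use the same 3 TKO arrays, so their values are given side by side and not as support for each other. With a single array left out, 11 of the 17 calls in WT and 13 of the 19 in WT+MMSET1 held each time. ERN1 was among those lost, at 1.80 (limma adjusted p = 0.0507) without WT replicate 1 and 1.72 (0.058) without TKO replicate 3.

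ERN1, the kinase and RNase sensor IRE1, had the largest range of the 33. Its values on the 3 arrays were 10.98, 10.61 and 10.58 in WT and 10.86, 10.28 and 10.37 in WT+MMSET1. They were 9.10, 8.91 and 8.39 in TKO, 8.41, 8.39 and 8.17 in CDM, 8.73, 8.40 and 8.33 in MMSET1 and 7.95, 7.74 and 7.43 in CDM+MMSET1. Every array of WT and WT+MMSET1 thus lay above every array of those 4 lines. The other lines were spread widely, with 10.36, 9.46 and 8.37 in PAR, 10.28, 8.89 and 10.01 in 526-1240, 10.23, 8.28 and 9.99 in 526-1365 and 11.59, 8.36 and 8.49 in H762Y. WT exceeded TKO by 1.92 (SE 0.606, limma adjusted p = 0.014). A second ERN1 probe set differed by 1.19 in the same direction, and another, with a mean of only 4.86 over all arrays, by 0.20.

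ATF6, the sensor that is cleaved in the Golgi, read 10.72, 10.35 and 10.58 in WT, 10.74, 10.47 and 10.58 in WT+MMSET1 and 9.77, 9.44 and 9.35 in TKO. The groups did not overlap, and WT was higher by 1.03 (SE 0.253, limma adjusted p = 0.0024). It also rose in 526-1240 by 0.87 and in 526-1365 by 0.89. Its 3 other probe sets gave 0.79, 1.01 and -0.20 for WT against TKO. EIF2AK3, the sensor PERK, did not follow: it read 9.64, 9.75 and 9.79 in WT and 9.74, 9.60 and 9.57 in TKO, and the difference was 0.09 (SE 0.0973, limma adjusted p = 0.487). XBP1, the transcript that IRE1 splices, read 11.43, 11.54 and 11.50 in WT and 11.48, 11.46 and 11.30 in TKO, with a difference of 0.08 (SE 0.0972, adjusted p = 0.553). Its probe set value does not separate the spliced from the unspliced transcript.

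Among BiP and its partners the members parted. HSPA5, the Hsp70 chaperone BiP and the classical marker of the response, read 12.16, 11.59 and 12.38 in WT, 12.43, 12.36 and 12.66 in CDM and 12.25, 12.12 and 12.41 in TKO, and the arrays of the 3 lines overlapped. Its difference from TKO was -0.22 in WT (SE 0.194, limma adjusted p = 0.379), and in none of the 8 transgene lines did it pass the test against TKO. DNAJB9, the J protein ERdj4 that binds BiP and IRE1, read 11.65, 10.80 and 11.76 in WT and 9.90, 9.54 and 9.40 in TKO. All WT arrays were above all TKO arrays, by 1.79 in the mean (SE 0.526, adjusted p = 0.00907), and its 2 other probe sets differed by 1.64 and 2.35.

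Of the luminal BiP partners, SDF2L1, which forms a complex with DNAJB11, fell furthest. It read 8.85, 9.13 and 9.43 in WT, 8.49, 8.89 and 9.31 in WT+MMSET1 and 10.17, 10.16 and 10.59 in TKO, without overlap. WT was lower than TKO by 1.17 on the log2 scale, that is -1.17 (SE 0.3, limma adjusted p = 0.00338). MANF, a nucleotide exchange inhibitor of BiP that is also secreted, read 9.70, 9.72 and 10.07 in WT and 10.52, 10.53 and 10.84 in TKO (-0.80). CRELD2 differed by -0.72 and DNAJB11, the J protein ERdj3, by -0.59. The call on MANF was lost without WT replicate 1 (-0.74, adjusted p = 0.0636), WT replicate 2 (-0.75, 0.0514) or TKO replicate 3 (-0.70, 0.0753). HYOU1, the exchange factor GRP170, differed by 0.54 in WT against TKO (adjusted p = 0.147) and its arrays overlapped.

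On their brightest probe sets CALR, the soluble lectin chaperone calreticulin, and CANX, its membrane-bound relative calnexin, differed from TKO in opposite directions in WT. CALR read 8.98, 9.42 and 9.14 in WT, 8.81, 9.33 and 9.10 in WT+MMSET1, 9.0, 9.60 and 9.13 in 526-1240 and 8.73, 9.74 and 9.12 in 526-1365. It read 10.22, 10.25 and 10.42 in TKO, 10.01, 9.95 and 9.90 in CDM, 9.98, 9.99 and 10.01 in MMSET1 and 10.07, 9.94 and 10.09 in CDM+MMSET1. All 12 arrays of the first 4 lines were below all 12 of the second. These lines were grouped with their values known. PAR (9.36 to 10.41) and H762Y (8.89 to 10.20) had arrays on both sides of the gap. The fall in WT against TKO was -1.12 (SE 0.283, limma adjusted p = 0.00317), and 2 further CALR probe sets gave -1.56 and -1.29. CANX was higher in WT by only 0.27 (SE 0.0873, limma adjusted p = 0.0173), and the call was lost without WT replicate 3 (0.20) or TKO replicate 2 (0.24). It has 5 probe sets of its own, and the dimmer ones are not given for WT against TKO. In PAR against TKO they differed in direction, from -0.96 to 0.14, so the CANX direction is that of the brightest probe set alone.

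Of the 8 degradation genes read, 4 rose and 0 fell in WT against TKO, where 21.5% and 19.3% of all genes did. Of 14 other degradation genes on a separate list 2 rose and 7 fell in the same comparison (median -0.25), so degradation genes as a whole did not share a direction. HERPUD2 (0.86) rose there, and VCP (-0.94), NPLOC4 (-0.57) and AUP1 (-0.51) were the lowest of the 7. DERL1, a channel protein of the retrotranslocation step, read 11.43, 10.84 and 11.22 in WT and 10.22, 10.24 and 10.15 in TKO (0.96, SE 0.222, limma adjusted p = 0.00149). SEL1L, the partner of the SYVN1 ligase, differed by 0.80, EDEM1, which targets mannose-trimmed glycoproteins, by 0.70 and HERPUD1, a membrane component of the same complex, by 0.60. The WT and TKO arrays did not overlap for any of these 4, and the share of all genes without overlap was not computed. The call on HERPUD1 was lost without WT replicate 1 (0.55, adjusted p = 0.0996), WT replicate 3 (0.60, 0.0713), TKO replicate 2 (0.64, 0.0515) or TKO replicate 3 (0.45, 0.157). Of the other SEL1L probe sets 1 differed by 0.86 and the rest by -0.02 and 0.12. EDEM3 (0.19), EDEM2 (-0.15), DERL2 (-0.11) and DERL3 (-0.90, with overlapping arrays of 7.87, 9.53 and 8.75 in WT and 9.73, 9.69 and 9.45 in TKO) did not pass.

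Among genes of oxidative folding PDIA4 (ERp72) fell in WT against TKO by -0.59 and ERO1A, the oxidase that recharges protein disulphide isomerase, by -0.44 (SE 0.0777, limma adjusted p = 0.000101). PDIA3 (-0.26), PDIA6 (-0.14), P4HB (-0.15) and ERO1B (0.21) did not pass. PDIA4 was no longer called without WT replicate 1 (-0.46, adjusted p = 0.132) or without TKO replicate 1, 2 or 3 (-0.58, -0.59 and -0.58, with adjusted p from 0.0568 to 0.0639). Of the entry and export genes SEC61B fell by -0.45 (-0.38, adjusted p = 0.0537 without WT replicate 1), and SEC61A1 (-0.12), SSR1 (0.05) and SEC24D (0.24) did not pass. A second SEC61A1 probe set gave -0.66, and the 6 SSR1 probe sets ranged from -0.69 to 0.52.

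**Figure D2:**
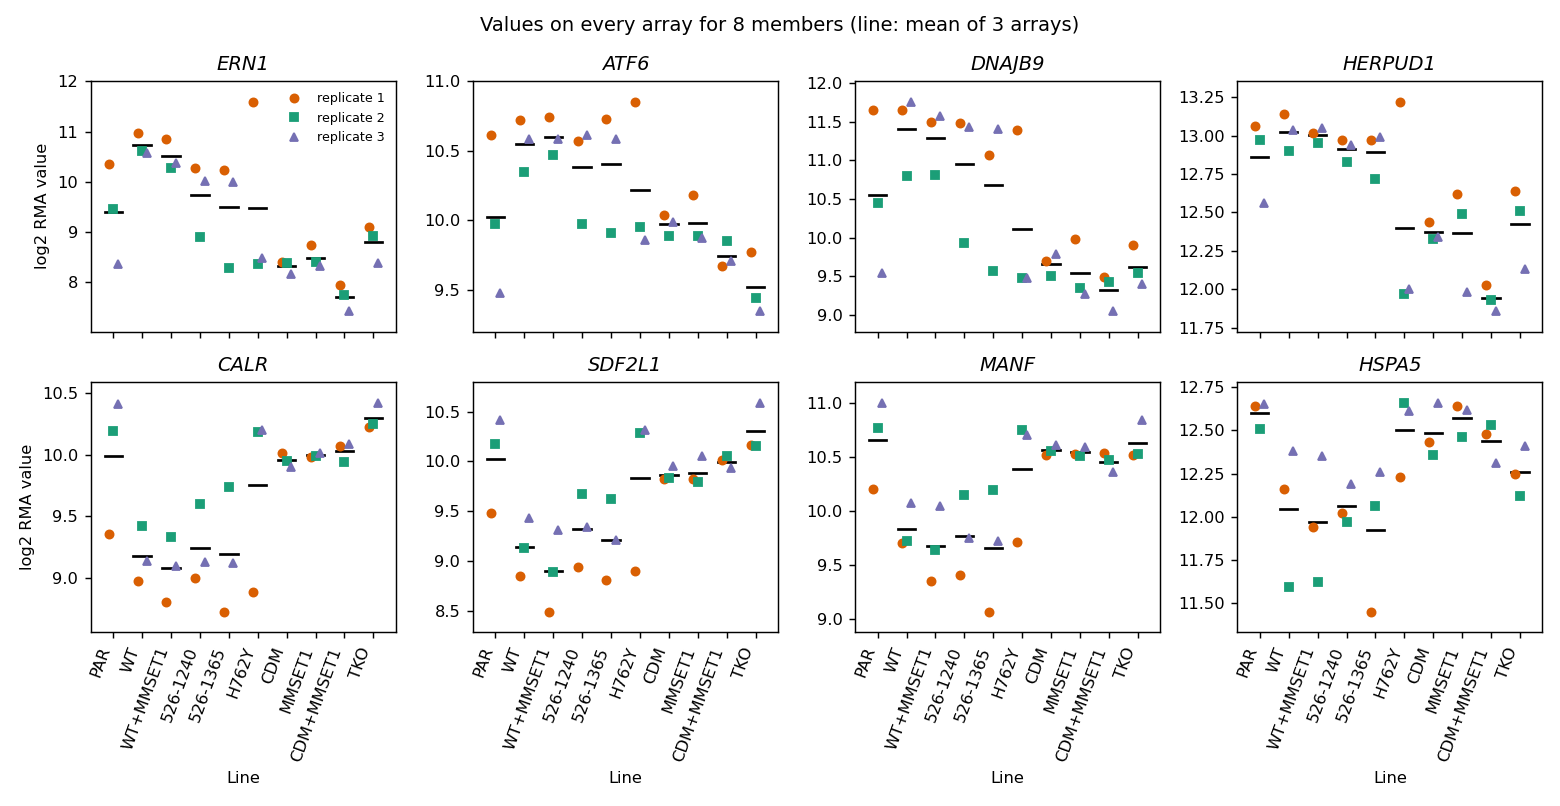
Log2 RMA values on all 30 arrays of 8 of the genes, by line, with replicates 1, 2 and 3 as circles, squares and triangles and a bar at the mean of 3. ERN1, ATF6, DNAJB9 and HERPUD1 were highest in WT or WT+MMSET1, where CALR, SDF2L1 and MANF were low, and H762Y replicate 1 lies apart from replicates 2 and 3 for most of the 8.

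In the fragment lines more of the genes fell than rose. In 526-1240 against TKO 3 of the 33 rose and 13 fell (20.9% and 17.7% of all genes), and in 526-1365 against TKO 2 rose and 12 fell (20.4% and 17.3%). ATF6 and EDEM1 rose in both lines, and DNAJB9 rose in 526-1240 (1.34, limma adjusted p = 0.0472). The DNAJB9 call was kept in 1 of 6 fits with an array left out and otherwise ran from 1.07 to 1.48 with adjusted p from 0.0616 to 0.18. CRELD2 fell by -1.18 in 526-1240 and -1.12 in 526-1365, CALR by -1.05 and -1.10, SDF2L1 by -0.99 and -1.10, and MANF by -0.86 and -0.97. DNAJC3, the BiP co-chaperone p58IPK, fell by -0.66 and -0.55. Replicate 2 lay apart from replicates 1 and 3 in both lines for ERN1 (8.89 and 8.28, beside 9.99 to 10.28 on the other 4 arrays). SEL1L, higher in WT, read 10.17, 9.61 and 10.30 in 526-1240 and 10.34, 9.59 and 10.45 in 526-1365, around the TKO values of 10.12, 10.10 and 10.02. Without 526-1240 replicate 1 the count of 16 in that line fell to 8.

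Between the fragment lines themselves 0 of 33 genes rose and 0 fell, as for all genes tested (0% in each direction by limma). At an unadjusted p under 0.05 there were 180 genes and 0 of the 33. The difference in ERN1 was -0.23 with a 95% confidence interval of -1.48 to 1.03, and that in CALR -0.05 with an interval of -0.63 to 0.54. These intervals come from the fit of all lines without a replicate block. Same-numbered arrays of the fragment lines varied together (residual correlations of 0.537, 0.815 and 0.518), which that fit does not take into account. A fit of the fragment lines alone with the replicate number as a block also called 0 of the 33 genes and 0% of all genes. Intervals with the block are not given here, so differences within the bounds above are not excluded.

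Few of the genes passed against TKO in the lines with the dead enzyme, the short isoform or both. In CDM against TKO 0 rose and 4 fell (9.99% and 7.18% of all genes), in MMSET1 against TKO 0 rose and 4 fell (9.29% and 7.6%), and in CDM+MMSET1 against TKO 1 rose and 4 fell (10% and 8.08%). HSP90B1 fell by -0.85 in CDM, -0.73 in MMSET1 and -0.58 in CDM+MMSET1, P4HB, the protein disulphide isomerase, by -0.44, -0.39 and -0.46, EDEM2 by -0.34, -0.50 and -0.49, and ERO1A by -0.31, -0.27 and -0.23. CANX rose in CDM+MMSET1 by 0.28. The count of 4 in CDM became 2 without CDM replicate 3 or TKO replicate 1, and that in MMSET1 became 2 without MMSET1 replicate 3. In CDM+MMSET1 the count of 5 became 2 without TKO replicate 1 and 3 without CDM+MMSET1 replicate 1, CDM+MMSET1 replicate 2 or TKO replicate 2. Same-numbered arrays varied together in CDM and TKO and in MMSET1 and TKO, and a fit of the paired lines alone with the replicate number as a block called 14 and 12 of the 33 genes, beside 31.1% and 25.4% of all genes. The same 2-line fits without the block called 12 and 9 (26% and 21.3% of all genes), so most of the move from 4 came with fitting the 2 lines alone. For CDM+MMSET1 and TKO, whose arrays were not paired in this way, the 2-line fit without the block called 15 genes. Of these 14 were lower, and 32.6% of all genes were called in that fit.

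HSP90B1 and ERO1A passed as lower than the same 3 TKO arrays in all 8 transgene lines with every array in the fit, and for HSP90B1 this held in each line with any single array left out. HSP90B1, the Hsp90 of the ER lumen (GRP94), read 10.18, 10.27 and 10.24 in TKO and 9.99, 10.17 and 10.05 in PAR. It read 9.08, 9.66 and 9.38 in CDM, 9.64, 9.48 and 9.39 in MMSET1 and 9.19, 9.37 and 9.54 in WT, all below the TKO and PAR arrays. Its difference from TKO ran from -0.58 in CDM+MMSET1 to -1.06 in 526-1365. A second probe set of the symbol gave -0.36 for WT against TKO. The 2 brighter probe sets that carry the symbol together with that of a microRNA are not read as a gene here and differed in direction: 1 read 11.18 in TKO, 9.83 in WT and 9.95 in CDM, and the other 12.24, 12.41 and 12.47. The direction given for HSP90B1 holds for the probe set of the rule and not for every probe set that bears the symbol. The ERO1A calls did not all hold in this way: in CDM+MMSET1 the call was lost whichever array was left out (-0.18 to -0.26, limma adjusted p from 0.0576 to 0.169). In MMSET1 it was lost without MMSET1 replicate 3 (-0.26, 0.0578) or TKO replicate 3 (-0.23, 0.0832), and in CDM without CDM replicate 3 (-0.26, 0.0523). ERO1A read 9.69, 9.66 and 9.82 in TKO, and its difference ran from -0.23 in CDM+MMSET1 to -0.44 in WT and 526-1240, with its other probe sets at -0.55 and 0.07 for WT.

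WT and CDM were also compared directly, and WT+MMSET1 with CDM+MMSET1, so that the same contrast of intact and dead enzyme was read in separate arrays. In WT against CDM 6 of the 33 genes were higher and 3 lower (12.4% and 11% of all genes). In WT+MMSET1 against CDM+MMSET1 10 were higher and 7 lower (16.1% and 16%). Both called 8 genes in the same direction, ERN1, DNAJB9, SEL1L, HERPUD1 and DERL1 higher and CALR, MANF and DNAJC3 lower, which is 88.9% of the first list and 47.1% of the second. Over all genes tested 2402 were shared, 78.2% and 56.9% of the lists. No gene was called in opposite directions (0 of the 33 and 0 of all), and the sign was shared by 28 of the 33 (84.8%) and by 80% of all genes.

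ERN1 was higher in WT than in CDM by 2.40, a 5.29-fold difference (SE 0.606, limma adjusted p = 0.0075), and in WT+MMSET1 than in CDM+MMSET1 by 2.80, a 6.95-fold difference (adjusted p = 0.00164). DNAJB9 differed by 1.74 (adjusted p = 0.021) and 1.98 (adjusted p = 0.00696), with 11.50, 10.81 and 11.58 in WT+MMSET1 and 9.49, 9.42 and 9.05 in CDM+MMSET1. HERPUD1 read 13.14, 12.90 and 13.04 in WT against 12.44, 12.33 and 12.34 in CDM (0.66), and 13.02, 12.95 and 13.05 in WT+MMSET1 against 12.03, 11.93 and 11.86 in CDM+MMSET1 (1.07). None of these 3 genes had overlapping arrays in either contrast, again without a share of all genes to set beside it. CALR was lower by -0.78 (adjusted p = 0.0494) and -0.95 (adjusted p = 0.0137), and MANF by -0.73 (adjusted p = 0.0468) and -0.78 (adjusted p = 0.0275). HYOU1 was higher in WT than in CDM by 0.95 (adjusted p = 0.0251) and by 0.75 in the other contrast, where it did not pass (0.0551). ATF6 (0.85), EDEM1 (0.84), ERO1B (0.88), EDEM2 (0.30) and XBP1 (0.28) were higher and SDF2L1 (-1.10), CRELD2 (-0.68), DNAJB11 (-0.65) and DERL2 (-0.22) lower in WT+MMSET1 than in CDM+MMSET1 but did not pass between WT and CDM.

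**Figure D3:**
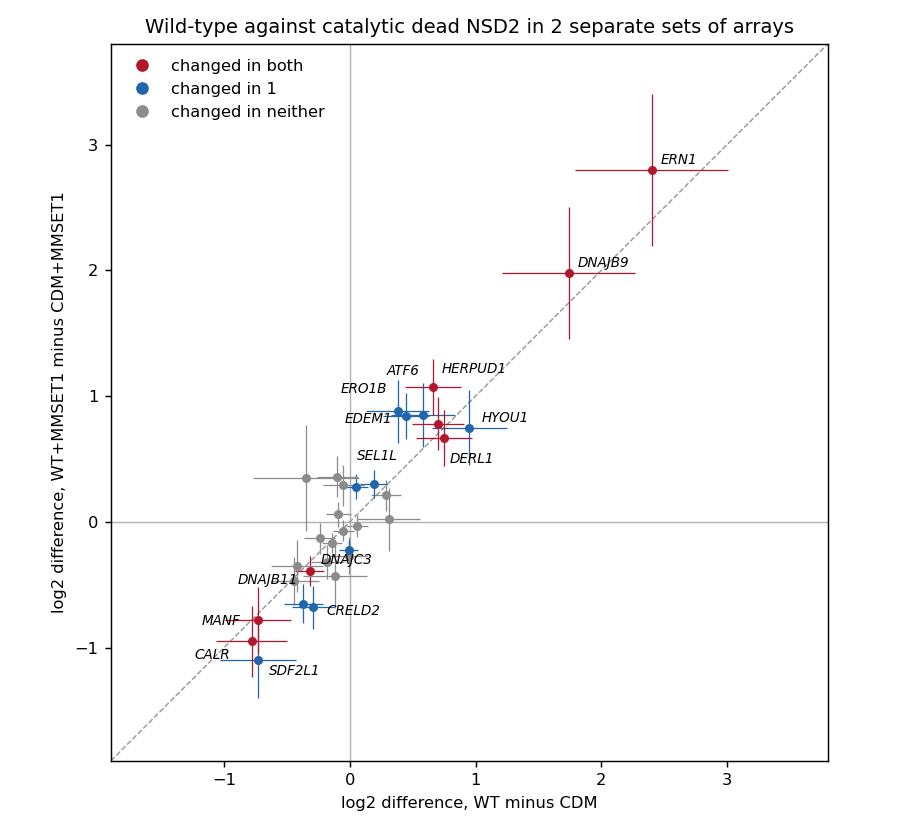
Difference of WT minus CDM (x axis, log2) and of WT+MMSET1 minus CDM+MMSET1 (y axis, log2) for the 33 genes, with SE as bars and a dashed line of equality. The 8 genes called in both (red) run from CALR at -0.78 and -0.95 to ERN1 at 2.40 and 2.80, and 10 more (blue) were called in 1 of the contrasts.

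The counts of WT against CDM changed with the arrays and lines in the fit. Fitted alone, the 2 lines gave 13 of the 33 genes, 8 higher and 5 lower (26.8% of all genes called). The fit of all lines shares a single spread per gene. For ERN1 the SD was 0.222 in WT and 0.133 in CDM but 1.83 in H762Y. In that fit the count of 9 became 1 without WT replicate 1 or CDM replicate 2 and 2 without CDM replicate 3. It was 3 without WT replicate 3 or CDM replicate 1, and such counts can include genes outside the 9. ERN1 was the 1 gene called each time. In WT+MMSET1 against CDM+MMSET1 8 of the 17 calls held with any array left out, ERN1, DNAJB9, HERPUD1, SEL1L, EDEM1, ERO1B, CRELD2 and DNAJB11, and the count fell to 9 without WT+MMSET1 replicate 1. The 3 calls of lower genes in WT against CDM, with adjusted p from 0.0468 to 0.0495, were also lost when dim genes were kept in the test. The interaction, which asks whether the short isoform alters the contrast of WT and CDM, passed for 0 of 33 genes in either direction (0% of all genes in each). At an unadjusted p under 0.05 limma gave 492 genes and 0 of the 33. For ERN1 the interaction was 0.39 with a 95% confidence interval of -1.38 to 2.17.

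The genes that hold an ERSE or ERSE-II in the promoter windows did not share a direction. Of the 11 read, 2 were higher and 4 lower in WT against TKO, 2 and 1 in WT against CDM, and 3 and 3 in WT+MMSET1 against CDM+MMSET1. Of the 18 genes read with neither element the counts were 5 and 5, 3 and 2, and 6 and 4. Of all genes 21.5% and 19.3%, 12.4% and 11%, and 16.1% and 16% were higher and lower in these comparisons. HERPUD1 was higher in all 3 comparisons and CALR lower in all 3. The median differences of the 11 were -0.14, -0.01 and -0.07, beside -0.11, -0.03 and 0.04 for the 18 genes read whose windows hold neither.

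The parental line was compared with the knockout and with WT. In PAR against TKO 2 of the 33 rose and 3 fell (12.2% and 10.1% of all genes), PDIA6 (0.28) and EDEM2 (0.35) up and EIF2AK3 (-0.45), ERO1A (-0.26) and DERL2 (-0.23) down. EIF2AK3 read 9.32, 9.19 and 9.07 in PAR and 9.74, 9.60 and 9.57 in TKO, without overlap (limma adjusted p = 0.00138), and it was the 1 of the 5 called whichever array was left out. The count was 2 without PAR replicate 2 or TKO replicate 3 and 3 without TKO replicate 1, and it was 2 in a fit of the 2 lines alone, both without a block (15.3% of all genes called) and with the replicate number, which paired their arrays, as a block (19.3%). ERN1 (0.59), DNAJB9 (0.93) and ATF6 (0.50) did not pass, and their PAR arrays ran from 11.65 to 9.54 for DNAJB9 and from 10.61 to 9.48 for ATF6. Other probe sets gave 0.17 to 0.33 for PDIA6, -0.10 and -0.26 for ERO1A and -0.03 for DERL2. Among genes not called, a dimmer CANX probe set gave -0.96, where its others ran from -0.24 to 0.14. The dimmer DNAJC3 probe sets ran from -0.56 to -0.49.

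In WT against PAR 3 rose and 11 fell (15.7% and 14.9% of all genes). EDEM1 (0.75), EIF2AK3 (0.54) and CANX (0.25) rose. HSPA5 was 12.64, 12.51 and 12.65 in PAR and fell in WT by -0.56 (SE 0.194, limma adjusted p = 0.0309), with no overlap. Without WT replicate 2 the HSPA5 value was -0.33 (adjusted p = 0.201), and the call was also lost without PAR replicate 1, 2 or 3 (-0.54, -0.60 and -0.53). DERL3 (-1.15), SDF2L1 (-0.89), MANF (-0.83), CALR (-0.81), HSP90B1 (-0.70), PDIA4 (-0.59), EDEM2 (-0.50), DNAJB11 (-0.49), PDIA6 (-0.41) and SEC61B (-0.39) fell too. DERL3 was -0.72 without WT replicate 1 (adjusted p = 0.254). Of the 14 calls 5 held with any array left out, those on EDEM1, EIF2AK3, HSP90B1, EDEM2 and PDIA6. The count of 14 became 6 without PAR replicate 2, PAR replicate 3 or WT replicate 1. Without PAR replicate 1 it was 19.

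H762Y turned on its replicate 1. With all 3 arrays 1 of the 33 genes was higher than in TKO and 3 lower (8.5% and 7.26% of all genes), CANX (0.29) and HSP90B1 (-0.68), ERO1A (-0.43) and EDEM2 (-0.37). This count of 4 became 2 without TKO replicate 1 or 2. Without H762Y replicate 1 it was 4, with DNAJC3 (0.38) higher and HSP90B1, ERO1A and EDEM2 lower. Against WT 1 gene was higher and 0 lower (5.98% and 9.41% of all genes), DNAJC3 at 8.92, 9.23 and 9.16 in H762Y and 8.59, 8.41 and 8.87 in WT (0.47, SE 0.118, limma adjusted p = 0.00887). The call was lost without WT replicate 2, H762Y replicate 2 or H762Y replicate 3, which left 0 calls.

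Without H762Y replicate 1 the comparison with WT called 17 of the 33 genes, 8 higher and 9 lower, where 19.4% and 19.8% of all genes were called. ERN1 was then lower by -2.30 (limma adjusted p = 0.00063), DNAJB9 by -1.92 and HERPUD1 by -1.04 (adjusted p = 3.24e-05), while SDF2L1 was higher by 1.17, CALR by 1.01 and MANF by 0.90. CALR read 8.89 on replicate 1 and 10.18 and 10.20 on the others, beside means of 9.18 in WT and 9.95 in CDM. SDF2L1 read 8.90 and then 10.29 and 10.32, beside 9.13 and 9.87. For 16 of the 17 genes replicate 1 lay nearer the WT mean, and for all 17 replicates 2 and 3 lay nearer the CDM mean. The 17 were chosen for the distance of replicates 2 and 3 from WT, so their side is a description with no test.

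**Figure D4:**
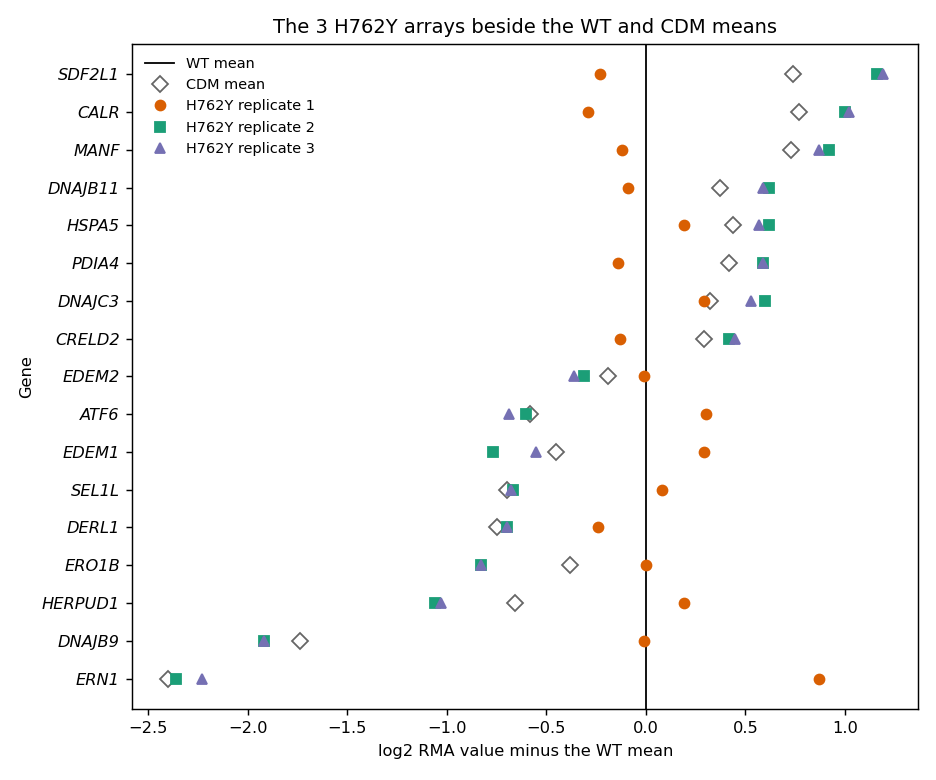
The 3 H762Y arrays as log2 value minus the WT mean (x axis; line at 0) for the 17 genes called against WT without replicate 1, with the CDM mean as an open diamond. Replicates 2 and 3 lie beside each other on the side of the CDM mean, with ERN1 values of 8.36 and 8.49 against a WT mean of 10.72, and replicate 1 is mostly nearer the WT mean, with an ERN1 value of 11.59.

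The replicate number itself went with some of these genes. ERN1 was highest on replicate 1 in 10 of 10 lines and ATF6 and HERPUD1 in 8, and MANF, CRELD2, PDIA3, PDIA4 and CALR were lowest on replicate 1 in 8 lines. Of all genes tested 5.5% were highest and 7.68% lowest on replicate 1 in at least 8 lines. The labels do not say what a replicate number stands for, and its part in the results was not tested beyond the fits without replicate 1 and with the number as a block. With replicates 2 and 3 of every line alone 8 genes were called in WT against CDM and 13 in H762Y against WT. The share of all genes is not given beside these counts, so they cannot be set apart from a change across all genes.

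Other genes of the pathway were read from 6 further lists. The list called PERK-ATF4 branch holds ATF4, stress genes linked to it and regulators of translation, and had 12 genes. The name is a label for the list and not a reading of PERK activity. Which kinase acted upstream was not tested, and EIF2AK3 itself read 9.73 in WT and 9.82 in CDM. All 12 were called in both contrasts of intact and dead enzyme, 11 higher and 1 lower, where 23.4% and 32.1% of all genes were called. The medians were 1.65 and 2.03, beside -0.02 and -0.02 over all genes. Some calls were near the threshold, with limma adjusted p up to 0.0459 (CHAC1, WT against CDM) and 0.044 (PPP1R15A, the other contrast). Fits with an array left out were not made for this or the other lists, so how far these calls hold was not tested. In WT against CDM the largest were ATF3 (3.41), TRIB3 (2.84), SESN2 (2.83) and PPP1R15A (2.00). In WT+MMSET1 against CDM+MMSET1 they were ATF3 (4.36), SESN2 (3.36), TRIB3 (2.87) and CEBPB (2.55). EIF2S1, the translation factor that PERK phosphorylates, was the 1 lower gene (-0.61 and -0.78), named after its values were seen. In WT against TKO 8 rose and 1 fell (21.5% and 19.3% of all genes, median 1.16). In PAR against TKO 0 rose and 0 fell (median 0.81), and in CDM against TKO likewise 0 and 0 (median -0.40). The mean of the 12 was 11.08 in WT, 10.79 in PAR, 9.94 in TKO, 9.51 in CDM and MMSET1 and 9.13 in CDM+MMSET1. On the H762Y arrays it was 11.23, 9.05 and 9.29, with replicate 1 again apart. On replicate 2 of 526-1240 and 526-1365 it was 10.43 and 10.23, beside 11.01 to 11.17 on replicates 1 and 3.

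The other 5 lists held fewer calls, and in several the share was near that of all genes, which was 12.4% higher and 11% lower in WT against CDM and 16.1% and 16% in WT+MMSET1 against CDM+MMSET1. Of 7 ATF6-related transducers tested 2 were higher and 0 lower in WT against CDM, CREB3L2 (1.52) and CREB3L4 (0.90), and 4 and 0 in WT+MMSET1 against CDM+MMSET1, with CREB3L2 at 1.87 and CREB3L4 at 1.01. Of 27 other folding factors 6 were higher and 0 lower in the first contrast, led by CLGN (4.92), the calnexin homologue calmegin, HSPA13 (1.44) and ERP29 (0.74), and 6 and 2 in the second, led by CLGN (4.10) and HSPA13 (1.65). Of 14 other degradation genes 0 were higher and 2 lower, VCP (-0.66), the ATPase that extracts chains from the membrane, and NGLY1 (-0.44), and then 2 and 5, with VCP at -0.92 and HERPUD2 at 0.75. Of 28 translocation and glycosylation genes 2 were higher and 0 lower, SEC11C (0.57) and SEC63 (0.45), and then 4 and 3, with SEC11C at 0.76. Of 20 genes of ER to Golgi transport 2 were higher and 0 lower, KDELR1 (0.42), which returns escaped chaperones, and SEC16A (0.21), and then 3 and 1, with KDELR1 at 0.66.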

How the data were processed

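The deposited values are log2 intensities that the authors computed by RMA (background correction, quantile normalization and probe summary) for 54613 probe sets on 30 arrays, per the series design and the submitters' processing notes. Version and chip definition were not given in the sources used here. Quantile normalization gives all arrays the same distribution, so a shift of all genes would not be seen. Array medians ran from 4.986 to 5.039, values from 1.91 to 14.62, and the table held 0 columns of other series. The series design calls the arrays of a line biological triplicates and precision is limited by having only 3 of each.

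In the platform annotation 41091 probe sets had 1 symbol, 1801 had several and 11721 were not listed. Those with 1 symbol gave 19775 genes, each by its brightest probe set. A gene was tested if that exceeded 5.013 on at least 3 arrays (13137 genes). A mean per line was fitted with limma 3.58.1 in R 4.3.3 to all 30 arrays, with Benjamini and Hochberg adjustment over all genes tested in each of 14 comparisons of 2 lines and the interaction. A gene rose or fell at an adjusted p under 0.05. On simulated data for WT against TKO, with 200 changed genes of 13137, 58% of 1.5-fold and 85% of 2-fold changes were recovered, there were 10 false calls, and a comparison without changes gave 0. The simulated errors were independent, with 1 spread per gene in all lines. In the data 40.8% of all genes were called in WT against TKO and spreads differed between lines. The simulated rates check the code and do not give the error rates of the real comparisons.

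Equal replicate numbers paired the arrays (residual correlation over 0.1 in every pair) in PAR, CDM and MMSET1 against TKO and between the fragment lines. The listed genes, the other lists and the tests were chosen with earlier results of these data known. All listed genes could be named, and of other lists the up to 4 with the largest difference among those called. Other settings tried were array centring, the mean of a gene's probe sets, no filter, only the lines compared, a replicate block and leaving out each array.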

Additional observations from a re-analysis of the deposited data

How the results depend on the processing

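Of 129 calls on single genes, centring the arrays kept 129, dropping the filter 119, fitting only the lines compared 107, the same with a replicate block 106 and taking the mean of a gene's probe sets 100. Leaving out an array kept 561 of 774, and 0 of these calls reversed. 1 uncalled value reversed: with the mean of probe sets DNAJC3, MMSET1 vs TKO was called at -0.40. The causes were not tested.

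Only the lines compared were fitted without and then with a replicate block, and the share of all genes called is in brackets. PAR against TKO gave 2 (15.3%) and 2 (19.3%) genes, CDM against TKO 12 (26%) and 14 (31.1%). MMSET1 against TKO gave 9 (21.3%) and 12 (25.4%), and CDM+MMSET1 against TKO 15 (32.6%) and 12 (28.6%). H762Y gave 0 (2.25%) and 0 (0%) against TKO and 0 (2.31%) and 0 (3.27%) against WT. WT against PAR gave 5 (14.7%) and 12 (22.2%), and WT against CDM 13 (26.8%) and 15 (27.5%). The mean of probe sets gave 2 each for CDM+MMSET1 and H762Y against TKO and for H762Y against WT. Chosen after seeing the data, replicates 2 and 3 alone gave 2 each for PAR, CDM, MMSET1 and CDM+MMSET1 against TKO and 13 for H762Y against WT, and a replicate block over all 30 arrays gave 15 for WT against CDM and 8 for H762Y against WT. The block moved no other count by over 1.5 times. Counts printed without brackets lack the share of all genes, so they describe the stability of the counts alone.

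Leaving out an array gave 2 to 5 genes for PAR against TKO, 12 to 18 for WT, 14 to 17 for WT+MMSET1, 8 to 16 for 526-1240, 10 to 17 for 526-1365, 2 to 4 for CDM, MMSET1 and CDM+MMSET1 and 2 to 5 for H762Y, all against TKO. It gave 1 to 8 for WT against CDM, 9 to 15 for WT+MMSET1 against CDM+MMSET1, 0 to 17 for H762Y against WT, 6 to 19 for WT against PAR, 25 to 30 for the F test and 0 to 0 for the fragments and the interaction. The share of all genes is not given beside these ranges, so they describe the stability of the counts alone.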
